A study of Mus musculus with 33 samples.

Results

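RNA depleted of ribosomal RNA was compared between Dnmt3a homozygous-null (KO, Dnmt3a -/-) and wild-type (WT, Dnmt3a +/+) mature olfactory sensory neurons, the odor-detecting nerve cells of the nose, isolated by fluorescence-activated sorting from the main olfactory epithelium of mice 3 weeks old. Genes were taken from the authors' table of sorted neurons, which gives 1 pooled value per genotype from 2 libraries each. Of its 14751 rows, 7 had no values, and 14744 genes were compared, out of 29364 gene rows in the 2 tables used here. A filter on low values, at least 0.5 in 2 of the 3 columns, removed 6 genes and left 14738. A heterozygous-null (Het, Dnmt3a +/-) column stands in the same table, and the whole epithelium of KO, Het and WT mice exposed for 60 min to water or to an odor mixture of amyl acetate, acetophenone and octanal was measured in 6 other libraries, 1 per genotype and exposure. The sources used here do not give the lesion of the null allele, in which cells it is lost, how many animals gave each library, or by which marker the neurons were sorted.

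Dnmt3a encodes a DNA methyltransferase that places new methyl groups on cytosine. In postmitotic neurons it is the main enzyme that adds methylation as the cells mature, while Dnmt1 copies methylation when DNA is replicated. Each mature olfactory sensory neuron expresses as a rule a single odorant receptor gene, and carries the odor signal through a G protein, the adenylyl cyclase Adcy3 and cyclic nucleotide-gated channels in its cilia. In development, methylation and the Polycomb system both act at genes of other lineages, among them the homeobox factors.

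Values are deposited RPKM, reads scaled to gene length and to library size, and the depth of the sorted-neuron libraries is not known. Differences are on the log2 scale after adding 0.5 to each value, and are KO minus WT unless another pair is named. With 1 value per genotype there was no replicate error and no test between the sorted neurons, so "2-fold" below means a log2 difference of at least 1 and is a description of these pooled values. Per the labels, both KO libraries were made with the NuGEN Encore Complete kit from 100 ng of RNA, both WT libraries with RiboMinus and ScriptSeq from 200 ng, and Het with 1 of each kit. Genotype and kit cannot be told apart between the KO and WT columns. The epithelium libraries were all made with the NuGEN kit and share no library with the sorted neurons, so they give the KO against WT difference without the change of kit. In sorted or whole tissue, fewer cells of a type and less RNA per cell cannot be told apart.

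Dnmt3a itself (ENSMUSG00000020661) was lowest in KO in sorted neurons. It had 56.2 in KO sorted neurons, 119.9 in Het and 175 in WT, so that KO kept 32.2% of the WT value. In the epithelium it had 56.1 with water and 48.3 with odor in KO, against 84.4 and 89.0 in WT, and both KO libraries lay below both WT libraries. Het epithelium had 50.3 with water and 66.6 with odor, so that with water Het lay below KO.

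The deposited columns differed in spread as well as in single genes. The 90th percentile of all genes was 223 in KO, 274 in Het and 291 in WT, and the 10th percentile was 5.98 in KO, 3.43 in Het and 2.5 in WT. High genes were thus lower in KO and low genes higher. The ratio of the upper to the lower quartile was 7.34 in KO, 11.7 in Het and 15.6 in WT, and it ranged from 6.73 to 7.52 over the 6 epithelium libraries. The part of kit, tissue and genotype in these spreads was not tested.

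Across the 14738 genes, 6308 were higher in KO and 8430 lower, with a median difference of -0.13. In all, 2579 genes, or 17.5%, were at least 2-fold higher in KO, and 419, or 2.84%, at least 2-fold lower. Of the 2-fold genes 86.0% were thus the higher ones, against 92.6% after centring each column on its median and 56.2% after quantile normalization. For Het against WT, which shares the WT column, the shares were 6.89% higher and 2.5% lower. The level of a gene is the mean of its log2 values over the 3 columns, turned back to RPKM. Among genes with a level under 5, 54.8% were at least 2-fold higher in KO, and among those from 5 to 20 the share was 35.3%. It was 2.84% from 20 to 100, 0.354% from 100 to 500 and 0.149% at 500 or more. In the first of these bands the median difference was 1.07, and in the last it was -0.37. In the epithelium, the genes of the band under 5 had a median difference of -0.01 with water and 0.04 with odor. Every list of lowly expressed genes below therefore has to be read against 42.3%, the share of all 5710 genes under 20 that were at least 2-fold higher in KO. That share is itself a mean over levels. For a list whose members lie mostly under 5, the 54.8% of that band is the nearer reference.

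**Figure D1:**
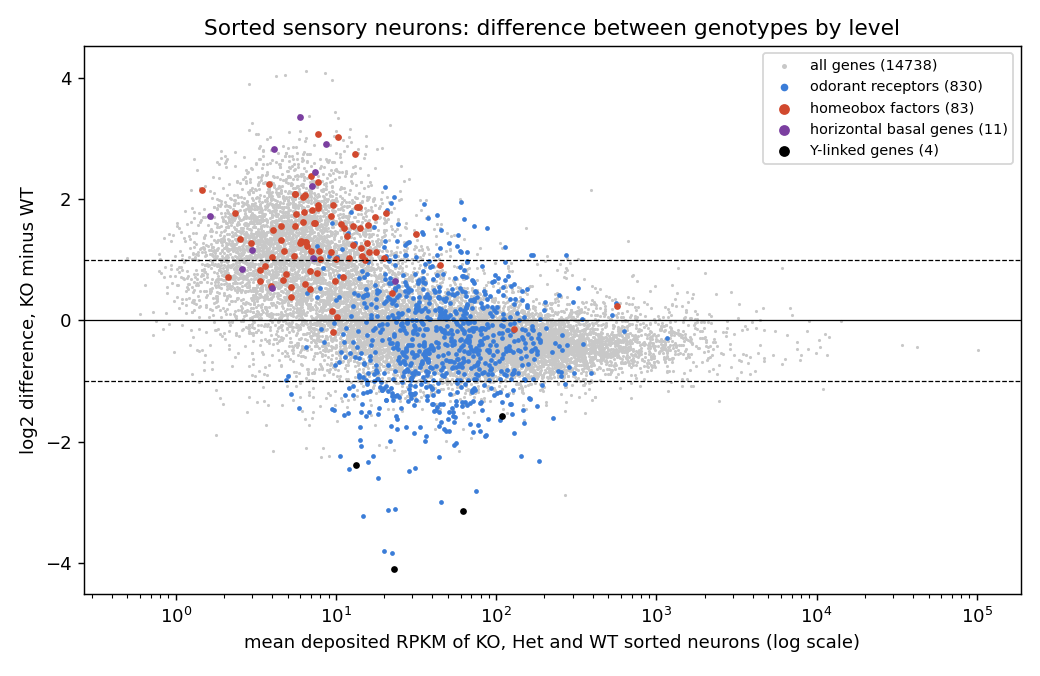
Difference between KO and WT sorted neurons (vertical axis, log2) against the level, the mean of the log2 values of the 3 columns turned back to RPKM (horizontal axis, log scale). There is 1 point per gene, with dashed lines at 2-fold. Low genes lie above 0 and high genes below it, homeobox factors and horizontal basal genes sit in the low cloud, odorant receptors spread widely in both directions at middle levels, and the 4 Y-linked genes lie below -1.

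**Figure D2:**
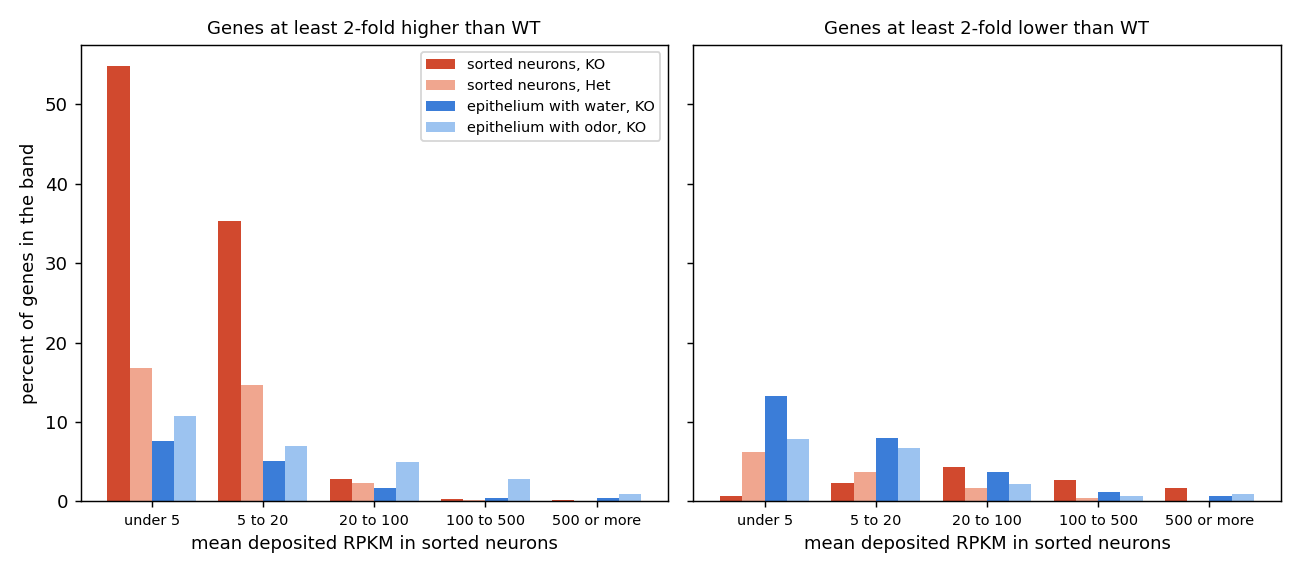
Percent of genes at least 2-fold higher (left) or lower (right) than WT in bands of the level in sorted neurons, for KO and Het sorted neurons and for KO epithelium with water and with odor. KO sorted neurons reach 54.8% higher in the lowest band, and no bar of the other comparisons on the left exceeds 16.8%.

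Genes that define the sorted cell type were abundant in all 3 columns and lower in KO. All 7 markers of mature sensory neurons were lower, at a level (100 or more) where 11.5% of all genes were higher in KO, with a summed value of 21323 in KO, 29613 in Het and 36606 in WT. Omp, the olfactory marker protein that defines these neurons, had 7612 in KO, 10449 in Het and 16660.5 in WT, and it ranked 14, 11 and 4 among all genes in these columns. Omp was the only one of these 7 markers at least 2-fold lower, with a difference of -1.13. After quantile normalization Omp was at -0.82, and Ano2, another of the 7, was above 0 at 0.08. In the epithelium Omp had 3296 with water and 5752 with odor in KO, against 5962 and 2717 in WT, and the groups overlapped.

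The list of 24 odor transduction genes had a median of -0.49, 2 were 2-fold higher and none was 2-fold lower. Its 20 members at 20 or more had a median of -0.59, against -0.35 over all 9028 genes at that level. Cnga2, the main subunit of the cyclic nucleotide-gated channel, had 4538 in KO, 6642 in Het and 7435 in WT. Adcy3, the adenylyl cyclase of the cilia, had 434 in KO, 664 in Het and 744 in WT. Slc24a4, a calcium exchanger that ends the odor response, was the lowest of the list at -0.91, with 134 in KO, 182 in Het and 253 in WT. Stoml3, a ciliary membrane protein and the most abundant member, had 27686 in KO, 38989 in Het and 36561 in WT. The highest difference of the list was at Gucy2d, at 1.27 (27.5 in KO, 9.55 in Het and 11.1 in WT), a guanylyl cyclase of a separate small class of sensory neurons that does not use Adcy3.

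Of 29 genes of mature neurons, 2 were 2-fold lower, Omp and Uchl1, and 1 was 2-fold higher, Nrsn1. Uchl1, a ubiquitin hydrolase of neurons, had 1136 in KO, 1742 in Het and 2412 in WT. The transcription factor Ebf1 had 988 in KO, 1149 in Het and 977 in WT, and S100a5, the most abundant mature-neuron gene in WT, had 34194 in KO, 48793 in Het and 46290.0 in WT. The medians of both lists stayed below 0 after quantile normalization, which gives all 3 columns the same distribution, at -0.18 for transduction and -0.08 for mature neurons. There 12 of the 29 mature-neuron genes were higher in KO and none stayed 2-fold lower. The 49 ciliary genes had a median of -0.48 (-0.14 after quantile normalization), with 2 at least 2-fold lower. Bbs7, a subunit of the complex that sorts membrane proteins into cilia, was the lowest of them, with 127 in KO, 204 in Het and 285 in WT.

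Several genes of immature neurons were higher in KO, unlike most genes of their level. At 20 or more, 12 of 22 were higher in KO, against 19.3% of all genes at that level, and at 100 or more it was 9 of 17, against 11.5%. Over all 25 the median was 0.10, and 0.36 after quantile normalization, and 2 were at least 2-fold higher. Gap43, a growth-cone protein of young axons, had 1242 in KO, 911 in Het and 837 in WT. Gng8, a G protein subunit of immature olfactory neurons, had 287 in KO, 138 in Het and 171 in WT. Of the 4 immature-neuron markers, 3 were higher in KO. The other, Stmn2, was slightly lower, with 1156 in KO, 1260 in Het and 1287 in WT. The basic helix-loop-helix factors Nhlh1 and Nhlh2, which mark newly formed neurons, were higher too: Nhlh1 had 156 in KO, 125 in Het and 88.5 in WT, and Nhlh2 had 58.7 in KO, 74.0 in Het and 20.0 in WT. Emx1, a homeobox factor of olfactory progeny, had the largest difference of the list at 2.499 (24.2 in KO, 10.1 in Het and 3.88 in WT). The lowest was Crmp1, a cytoskeletal protein of growing axons, with 112 in KO, 117 in Het and 158 in WT. In the epithelium the same list ran the other way, with medians of -0.26 with water and -0.16 with odor over 24 genes and 1 gene higher in both pairs.

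Dividing-cell markers were low in every column. Neurog1, a factor of the globose basal progenitors, is not among the genes listed, and Mki67, a proliferation antigen, had 29.4 in KO, 22.5 in Het and 17.9 in WT. Insm1, a zinc finger factor of neuronal progenitors, had 451 in KO, 344 in Het and 279.7 in WT. Of 48 DNA replication and mitosis genes, 15 were 2-fold higher and 3 lower, Ccnb2, Gins1 and Rfc4, and of their 38 members under 20 the share 2-fold higher was 36.8%, against 42.3% of all genes there. Of their 10 members at 20 or more, 6 were higher in KO, as were 6 of 8 progenitor genes at that level, against 19.3% of all genes. Their median of 0.67 became 0.00 after quantile normalization.

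Odorant receptors had a wider spread of differences, in both directions, than other genes of the same level. The list holds 830 of them, of which 50, or 6.02%, were at least 2-fold higher in KO and 161, or 19.4%, at least 2-fold lower. At levels from 20 to 100, the middle 80% of 562 receptors lay between -1.35 and 0.71, and that of 4688 other genes between -0.73 and 0.34. In that band 18.9% of receptors and 2.56% of other genes were 2-fold lower, and 6.41% and 2.41% were 2-fold higher. At 100 or more, 14.3% of 140 receptors were 2-fold lower and 2.86% 2-fold higher, against 2.06% and 0.22% of other genes. Under 20 the receptors did not share the shift of other genes: 7.81% of 128 receptors were 2-fold higher, against 43.1% of 5582 other genes. These are shares within 1 comparison of pooled columns, with no test.

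Summed over all receptors the value was 47427 in KO, 59385 in Het and 60222 in WT. As a share of each column's sum this was 2.64% in KO, 2.7% in Het and 2.66% in WT, and the 3 columns differed little. Receptors at 100 or more numbered 112 in KO, 168 in Het and 170 in WT, and those under 20 numbered 189 in KO, 119 in Het and 124 in WT. The median receptor difference was -0.36 as deposited and -0.13 after quantile normalization. Many receptors have near-identical copies among which short reads can be split, so single receptors are uncertain. The epithelium table holds 515 receptors, with a median difference of -0.49 with water and 1.30 with odor, and 123 were higher and 56 lower in both pairs.

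The 3 receptors with the largest positive differences at 10 or more were Olfr641, Olfr45 and Olfr24. Olfr641 had 45.1 in KO, 19.08 in Het and 9.46 in WT. Olfr45 had 35.3 in KO, 41.5 in Het and 8.23 in WT, and Olfr24 had 94.8 in KO, 94.7 in Het and 24.1 in WT. The 3 with the largest negative differences were Olfr775, Olfr1118 and Olfr1277. Olfr775 had 4.23 in KO, 36.8 in Het and 67.1 in WT, and Olfr1118 had 3.98 in KO, 30.8 in Het and 61.7 in WT. Olfr1277 had 7.28 in KO, 5.84 in Het and 72.2 in WT, with Het near KO. Olfr775 was not low in KO epithelium, with 130.1 with water and 64.5 with odor, against 54.7 and 84.9 in WT. Olfr1507, the most abundant receptor in WT, was close to the shift of its level band, with 1045 in KO, 1166 in Het and 1278 in WT. Of 9 trace amine-associated receptors, the other receptor family of these neurons, 1 was 2-fold lower (Taar7f, 28.9 in KO, 15.0 in Het and 61.9 in WT) and none 2-fold higher.

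**Figure D3:**
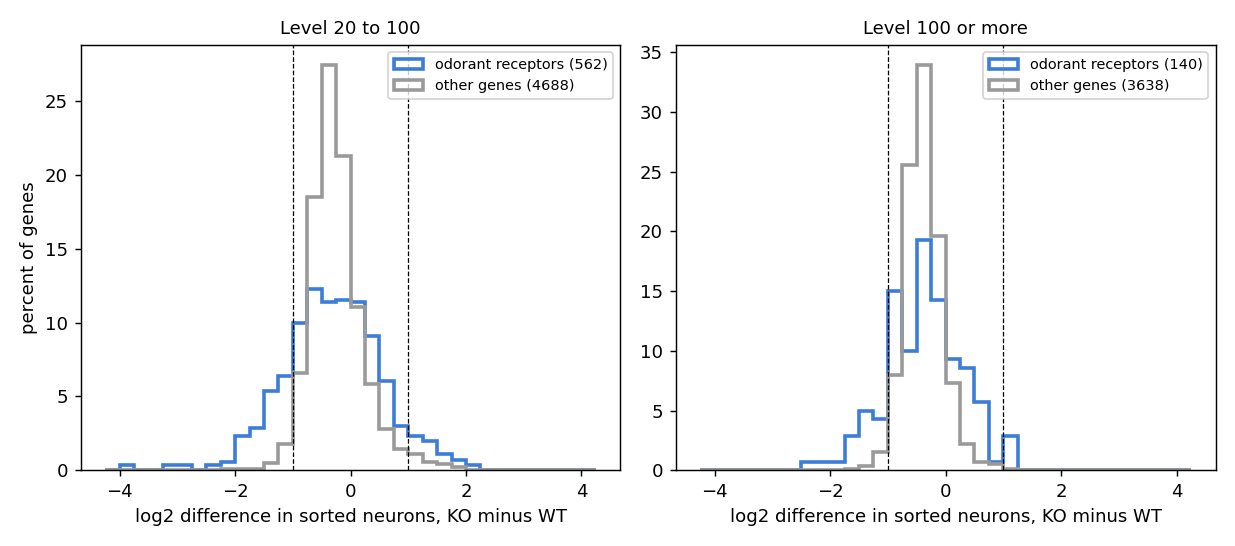
Distribution of the log2 difference between KO and WT sorted neurons for odorant receptors and for all other genes, at levels from 20 to 100 (left) and of 100 or more (right); the vertical axis is the percent of genes of each set per bin and dashed lines mark 2-fold. The receptor curve is wider than that of other genes in both panels, with 18.9% of receptors from 20 to 100 beyond the lower line against 2.56% of other genes.

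Homeobox factors, which pattern the embryo and are mostly silent in this neuron, were higher in KO nearly throughout. Of 83 Hox and other homeobox factors, 60 were at least 2-fold higher, none 2-fold lower, and 81 above 0, with a median of 1.28. The background for all genes was 17.5%. Of the 77 members under 20, 75.3% were 2-fold higher, against 42.3% of all genes there. Quantile normalization left a median of 0.71, with 28 members 2-fold higher and 1 lower. Their values remained low: the list's median was 13.3 in KO, 8.21 in Het and 4.36 in WT.

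Within the homeobox list the largest difference, 3.08, was at Tlx2, a factor of peripheral and enteric neurons, with 29.5 in KO, 4.74 in Het and 3.06 in WT. Gsx1, a factor of ventral forebrain progenitors, had 30.9 in KO, 9.86 in Het and 3.38 in WT, and Msx1, a factor of craniofacial mesenchyme, had 33.6 in KO, 13.9 in Het and 4.59 in WT. Hoxb13 and Hoxd11, posterior Hox genes, had 17.6 and 12.7 in KO, 11.3 and 7.64 in Het, and 4.36 and 2.64 in WT. The members below 0 were Hoxd13, with 7.89 in KO, 12.4 in Het and 9.04 in WT, and Pou4f1, with 117 in KO, 141 in Het and 129 in WT. Uncx, a homeobox factor abundant in these neurons, had 642 in KO, 533 in Het and 543 in WT. The epithelium table holds 26 of these genes, with a median difference of 0.14 with water and 0.00 with odor. Msx1 had 44.1 and 45.2 in KO epithelium with water and with odor, against 44.7 and 40.7 in WT. Of the 57 factors not listed there, 68.4% were 2-fold higher in KO sorted neurons, against 50.4% of all 1382 genes not listed there, of which 4.78% were 2-fold lower. These 1382 had medians of 11.3 in KO, 7.02 in Het and 4.67 in WT. The rule by which genes were listed is not known. A gene may be listed because its KO value was high, so these 2 shares cannot show a difference between genotypes.

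Other developmental transcription factors gave a like picture at smaller size. Of 53, 25 were 2-fold higher and none lower, with a median of 0.91, and 0.51 after quantile normalization. Of the 45 under 20, 51.1% were 2-fold higher. The epithelium table lacks 26 of the 53, of which 15 were 2-fold higher, so the limit on listing given for the homeobox list applies here too. Neurog3, which specifies endocrine cells of the pancreas and gut, had the largest difference, with 15.6 in KO, 15.2 in Het and 1.06 in WT. Bhlhe22, a factor of cortical and retinal neurons, had 16.7 in KO, 11.2 in Het and 1.82 in WT. Olig2, which these cells express highly, had 1639 in KO, 1705 in Het and 1601 in WT. The Polycomb genes themselves, which encode the repressive complexes, had a median of -0.34 over 25 members (0.03 after quantile normalization), and 1 of them, Phf19, was 2-fold higher, with 9.23 in KO, 5.95 in Het and 3.74 in WT.

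Genes listed as markers of other cells of the epithelium ranged widely in level and differed in both directions. Foxj1, a ciliogenesis factor listed here as a marker of respiratory ciliated cells, had 465 in KO, 610.1 in Het and 531 in WT. Of the 12 ciliated cell genes, 10 were lower in KO, with a median of -0.50 (-0.17 after quantile normalization), and 1 was 2-fold higher and 1 lower. Their median value in WT was 176, against 2.88 for 11 horizontal basal genes and 21.7 for 24 sustentacular genes. Which cells the ciliated cell genes were read from was not tested. The 3 horizontal basal markers, keratins Krt5 and Krt14 and the factor Trp63 of the resting stem cell, summed to 52.0 in KO, 13.8 in Het and 5.65 in WT. Krt14 had 22.6 in KO, 4.60 in Het and 1.75 in WT, and Krt5 had 24.9 in KO, 8.38 in Het and 2.88 in WT. Of the 11 genes on the longer horizontal basal list, 8 were 2-fold higher and all were above 0, and of the 10 under 20 the share 2-fold higher was 80.0%. The list's median of 1.72 was 0.74 after quantile normalization. In the epithelium the same list had a median of 0.21 with water and -0.42 with odor.

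Sustentacular cells, the supporting cells of the epithelium, gave a split result. Ugt2a1, an odorant-metabolizing glucuronosyltransferase, had 780.3 in KO, 429 in Het and 175 in WT (a difference of 2.15), the largest positive difference among all genes at 100 or more. Among other members, Krt8, a keratin of simple epithelia, had 78.1 in KO, 46.3 in Het and 25.5 in WT. The cytochrome Cyp2g1 ran the other way, with 80.9 in KO, 128 in Het and 132 in WT, as did Cyp2a5, with 56.2 in KO, 57.3 in Het and 92.6 in WT. Of 24 members, 10 were 2-fold higher and none lower. Of the 11 under 20, 63.6% were 2-fold higher, against 42.3% of all genes there. The 4 sustentacular markers summed to 195 in KO, 213 in Het and 253 in WT, lower in KO. They were split, with Cyp2g1 and Cyp2a5 lower and the other 2 higher. Cyp1a2 had 42.8 in KO, 17.7 in Het and 16.0 in WT, and Ermn had 14.7 in KO, 10.7 in Het and 11.8 in WT.

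The endothelial list had 7 of 11 members 2-fold higher, and 3 after quantile normalization, where its median of 1.41 became 0.58. Of the 10 under 20, 60.0% were 2-fold higher, against 42.3% of all genes there. Examples were Plvap, a protein of vessel fenestrae, at 42.2 in KO, 26.2 in Het and 13.0 in WT and Kdr, a receptor for vascular endothelial growth factor, at 8.66 in KO, 3.82 in Het and 0.953 in WT. The 13 microvillous genes had a median of 0.92 (0.81 after quantile normalization) with 4 at least 2-fold higher, among them the phospholipase Plcb2 at 8.79 in KO, 3.39 in Het and 1.40 in WT. Of 16 ensheathing glia genes, 12 were higher in KO, 6 of them at least 2-fold, and 2 were 2-fold lower, with a median of 0.71 (0.01 after quantile normalization). Of 14 macrophage genes, 12 were higher in KO, 6 of them at least 2-fold, and 1 was 2-fold lower, with a median of 0.67 (0.04 after quantile normalization). That one was C1qa, a complement subunit, with 5.89 in KO, 15.8 in Het and 16.7 in WT. The 5 macrophage markers together summed to 81.9 in KO, 67.5 in Het and 76.6 in WT. Under 20, 33.3% of 9 microvillous, 38.5% of 13 ensheathing and 46.2% of 13 macrophage genes were 2-fold higher, against 42.3% of all genes. The part of these cells in the other differences was not tested. Markers that are not listed at all include Obp1a, Obp2a and Bpifa1 of Bowman glands, Ptprc of leukocytes, and S100a8, S100a9 and Camp of neutrophils.

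Globin genes of red cells disagreed with each other. Hba-a2, an alpha globin, was 113 in KO, 205 in Het and 834 in WT, and its near-identical copy Hba-a1 was 125 in KO, 141 in Het and 257 in WT. The beta globin Hbb-b1 was 1985 in KO, 1159 in Het and 1086 in WT. Reads of the 2 alpha globins can be split between copies.

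**Figure D4:**
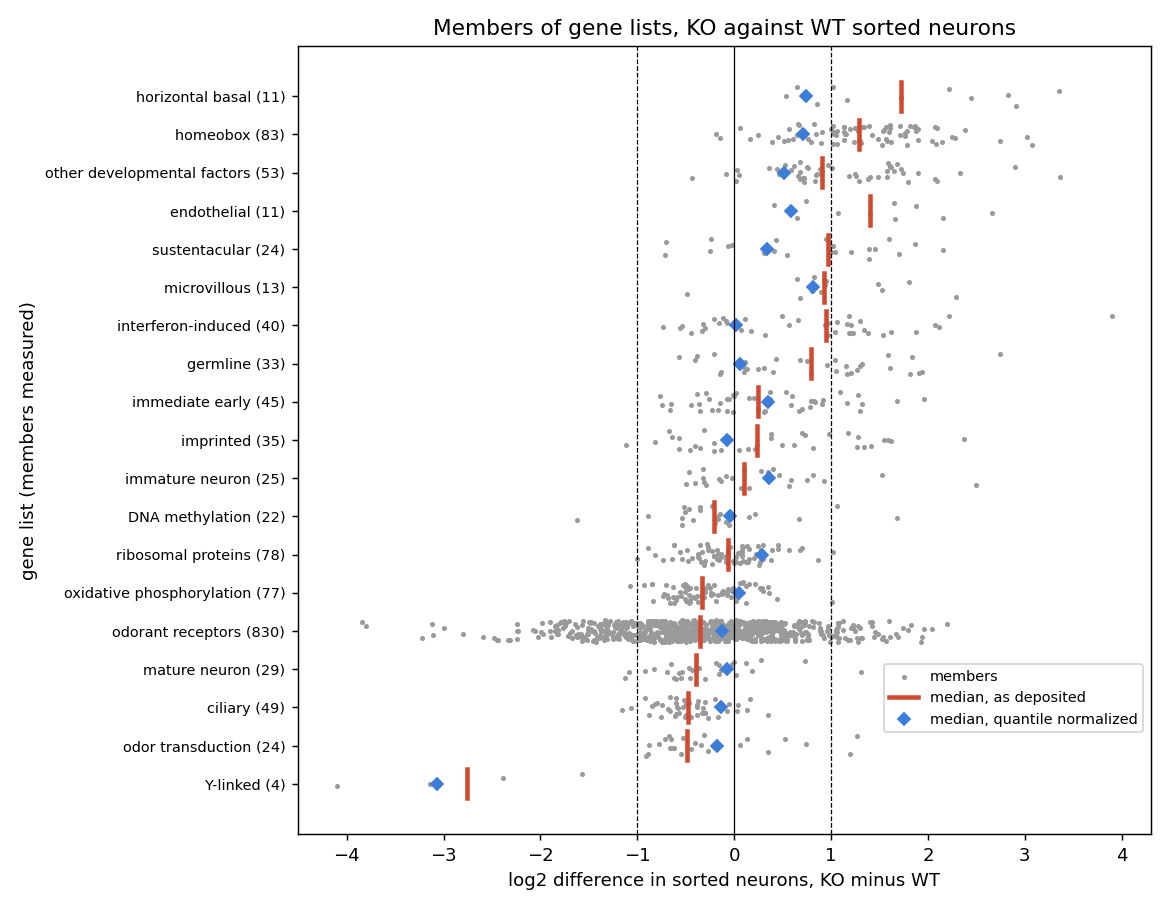
Members of 19 gene lists (rows, with the number measured) by the log2 difference between KO and WT sorted neurons; grey points are genes, red bars the list medians as deposited, blue diamonds the medians after quantile normalization, and dashed lines 2-fold. Horizontal basal, homeobox, other developmental, endothelial and microvillous lists keep medians above 0.5 under both. Interferon-induced and germline lists come to 0.02 and 0.06. Odor transduction, ciliary, mature neuron, odorant receptor, DNA methylation and Y-linked lists stay below 0.

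Interferon-induced and antigen presentation genes had medians above 0 in both tissues. In sorted neurons 18 of 40 were 2-fold higher and none lower, with a median of 0.95 that became 0.02 after quantile normalization. Of the 34 under 20, 52.9% were 2-fold higher. In the epithelium, the median was 1.11 with water and 0.31 with odor, and 26 of 40 were higher in both pairs. Dhx58, a viral RNA sensor of the RIG-I family, had the largest difference in sorted neurons at 3.90, with 10.6 in KO, 4.14 in Het and 0.244 in WT. In the epithelium Dhx58 had 3.93 with water and 3.87 with odor in KO, against 0.452 and 2.46 in WT. Not all members followed: Igtp, an interferon-induced GTPase, had 1.80 in KO sorted neurons, 8.81 in Het and 3.33 in WT, but 50.03 and 15.0 in KO epithelium, against 7.44 and 12.8 in WT. B2m, the light chain of class I molecules and the most abundant member in WT, had 311 in KO, 414 in Het and 275 in WT.

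Germline genes, many of which are silenced by promoter methylation in somatic cells, were 2-fold higher in 15 of 33 cases and 2-fold lower in none, with a median of 0.80 that became 0.06 after quantile normalization. Of the 28 under 20, 53.6% were 2-fold higher. The epithelium table lacks 15 of the 33, of which 9 were 2-fold higher, so the limit on listing given for the homeobox list applies here too. Syce1, a component of the meiotic synaptonemal complex, had 13.5 in KO, 9.80 in Het and 1.58 in WT. Piwil1, which binds germline small RNAs, had 33.0 in KO, 22.6 in Het and 10.5 in WT. Zcwpw1, a meiotic histone reader, was the lowest at -0.57, with 8.86 in KO, 9.57 in Het and 13.4 in WT. Imprinted genes gave 9 of 35 at least 2-fold higher and 1 lower, and their median of 0.23 turned to -0.07 after quantile normalization. Of the 20 under 20, 40.0% were 2-fold higher, against 42.3% of all genes there. Cdkn1c, a cell cycle inhibitor, had 56.8 in KO, 20.3 in Het and 24.9 in WT, and Peg3, a zinc finger protein, had 97.0 in KO, 128 in Het and 211 in WT.

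Of 22 enzymes and readers of DNA methylation, 2 were at least 2-fold higher and 1, Dnmt3a, lower. Gadd45b, a stress-response protein linked to active demethylation, had 70.0 in KO, 31.5 in Het and 21.4 in WT, a difference of 1.69. The other was Dnmt3b, the related methyltransferase, at 1.89 in KO, 0.709 in Het and 0.647 in WT. Uhrf2, a reader of modified cytosine, had 43.4 in KO, 59.1 in Het and 80.6 in WT. In the epithelium Gadd45b had 38.2 with water and 47.9 with odor in KO, against 27.04 and 45.9 in WT.

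Gadd45b is also among 45 immediate early and activity-regulated genes, of which 7, or 15.6%, were 2-fold higher, near the 17.5% of all genes, and none lower (median 0.25, and 0.35 after quantile normalization). In the epithelium 18 of the 43 listed were lower in both pairs and 2 higher. Egr2 and Egr3, zinc finger factors induced by activity, had 6.78 and 31.1 in KO, 1.637 and 18.3 in Het, and 1.37 and 12.4 in WT. Of the abundant members, Fosb had 270.5 in KO, 417 in Het and 459.6 in WT, and Jun had 1201 in KO, 1531 in Het and 1214 in WT. In the epithelium with water Fosb had 12.6 in KO and 17.0 in WT. The 2 tables were normalized separately, so levels set across them are approximate.

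Housekeeping lists held few 2-fold differences. The 77 oxidative phosphorylation genes had a median of -0.33 (0.05 after quantile normalization), with Ndufb4, a subunit of complex I, 2-fold higher (426 in KO, 377 in Het and 210.5 in WT) and Cox8a, a subunit of cytochrome oxidase, 2-fold lower (1095 in KO, 1781 in Het and 2313 in WT). The 78 ribosomal protein genes had a median of -0.06 (0.28 after quantile normalization), with 1 at least 2-fold higher, Rpl29, at 369 in KO, 317 in Het and 181 in WT. None of 21 heat shock genes was 2-fold apart. Both gene families have processed copies in the genome that can share reads. Of 24 clustered protocadherins, adhesion proteins that give neurons a surface identity, 2 were 2-fold lower and none higher, with Pcdha3 at 42.6 in KO, 74.4 in Het and 95.1 in WT. Of 115 ion channel subunits, 40 were 2-fold higher and 2 lower, and 18 and 5 after quantile normalization, where the median of 0.50 became 0.10. Of the 71 under 20, 54.9% were 2-fold higher, against 42.3% of all genes there. Their most abundant member, Kcnc4, had 2243 in KO, 3364 in Het and 4355 in WT.

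The 4 Y-linked genes listed were all at least 2-fold lower in KO sorted neurons. Kdm5d, a histone demethylase, had 3.62 in KO, 45.0 in Het and 70.3 in WT, the largest negative difference of all genes at -4.10. Ddx3y, an RNA helicase, had 16.3 in KO, 96.3 in Het and 148 in WT, and Uty, a further demethylase relative, had 4.85 in KO, 17.4 in Het and 27.4 in WT. In the epithelium Kdm5d had 66.7 and 77.0 in KO, against 69.8 and 65.2 in WT. The sex of the animals is not given in the sources used here, and the share of male tissue behind each sorted-neuron column was not tested.

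Outside the lists, the largest positive differences among genes at 10 or more were at Tssk1, a testis kinase, with 27.7 in KO, 7.02 in Het and 1.12 in WT, and Myl6b, a myosin light chain, with 37.6 in KO, 8.02 in Het and 1.74 in WT. Lep, the satiety hormone leptin, had 20.7 in KO, 5.14 in Het and 0.771 in WT. Apom, a lipoprotein component, had 24.1 in KO, 2.37 in Het and 1.00 in WT. Of the others, Ndufa4l2, a mitochondrial protein induced by low oxygen, had 29.5 in KO, 16.9 in Het and 1.42 in WT, and BC034090 had 25.1 in KO, 17.7 in Het and 1.85 in WT. Ptgis, prostacyclin synthase, had 19.2 in KO, 6.49 in Het and 1.38 in WT, and in the epithelium 37.7 and 33.0 in KO, against 24.7 and 22.95 in WT, where KO was higher in both pairs. Myl6b was not higher in the epithelium, with 13.6 and 21.9 in KO against 36.1 and 25.9 in WT.

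Leaving out receptors and histones, the largest negative differences after the Y-linked and globin genes included Gstp1, a glutathione transferase with 2.94 in KO, 10.5 in Het and 15.8 in WT, and Ccnb2, a mitotic cyclin with 7.99 in KO, 22.8 in Het and 34.8 in WT. Ankrd26 had 12.4 in KO, 12.5 in Het and 54.4 in WT, and S100a13, a calcium-binding protein, had 47.0 in KO, 39.5 in Het and 181 in WT. For both of these the Het value lay with KO. In the epithelium Ankrd26 had 17.1 and 22.7 in KO, against 19.2 and 19.7 in WT.

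At 100 or more, 12 of 3778 genes were at least 2-fold higher in KO and 95 lower. The 12, named after their values were seen, were Ugt2a1, Hist1h2ak, Hist3h2ba, Gng3, Bex4, Prph, Rpl29, Ndufb4 and the receptors Olfr1387, Olfr1395, Olfr1370 and Olfr741. All 12 were still at least 2-fold higher after quantile normalization. Gng3, a G protein subunit of neurons, had 185 in KO, 82.9 in Het and 75.5 in WT, and Prph, the intermediate filament peripherin, had 283 in KO, 235 in Het and 135 in WT. Bex4 was highest in Het, with 128 in KO, 179 in Het and 55.3 in WT. Of the 95 lower, 20 were odorant receptors. Most of the 95 did not stay 2-fold lower after quantile normalization, where Omp was at -0.82, Uchl1 at -0.77 and Cox8a at -0.74. The lower set also held Psmb5, a catalytic subunit of the proteasome, with 94.1 in KO, 118 in Het and 294 in WT. Psmb5 stayed 2-fold lower after quantile normalization, at -1.27. The genes just inside the 2-fold line were Mmp17, with 23.1 in KO and 11.3 in WT, and Cdc40, with 78.4 in KO and 157 in WT. Just outside it lay Tcfap4, with 26.1 in KO and 12.8 in WT, and Rpl15, with 107 in KO and 215 in WT.

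The epithelium addresses whether the same genes differed between KO and WT in libraries of 1 kit. No gene passed limma's test there (0 of 14602, or 0.0%, at a Benjamini-Hochberg adjusted p under 0.05, two-sided), and without adjustment the p was under 0.05 for 185 higher and 141 lower genes. The test rests on 6 libraries, 2 per genotype. Dnmt3a itself was not called, with a difference of -0.73 and a standard error of 0.24. The count of 0 therefore does not show that no gene differed. Of 13356 genes in both tables, 51, or 0.382%, were at least 2-fold higher in KO in both epithelium pairs, and 35, or 0.262%, lower. In single pairs the shares were 2.8% higher and 5.1% lower with water, and 5.42% higher and 3.47% lower with odor. Of the 51, 17 were also 2-fold higher in KO sorted neurons, which is 33.3% of the 51 and 0.903% of the 1882 genes that were 2-fold higher there. The share 2-fold higher in sorted neurons was 14.1% over all genes in both tables. It was 42.3% over all genes under 20 in sorted neurons, and 37.0% in the fifth of genes lowest in the epithelium. The 17 higher and 2 lower shared genes were 9 and 6 after quantile normalization. The 17 are 0.127% of those 13356 genes. Of the 35, 2 were also 2-fold lower in sorted neurons, Pabpc5 and Olfr628, which is 5.71% of the 35 and 0.567% of the 353 lower there (0.015% of all, against 2.64% lower in sorted neurons). Across all 13356 genes Spearman's rho between the sorted-neuron difference and the epithelium difference was 0.04 with water and -0.03 with odor, a description over genes, which are not independent.

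The 17 genes were Myh1, Car6, Myh2, Zbp1, Muc6, Olfr301, Rec8, Galr2, Tdrd12, Gata3, Gsdmd, Trem2, Myh3, Oasl2, Ccrl2, Usp18 and Ccna1. Of these, Zbp1, Oasl2 and Usp18 are members of the interferon-induced list, Rec8 and Tdrd12 of the germline list and Gata3 of the list of other developmental factors. Myh1, Myh2 and Myh3 encode muscle myosin heavy chains. All 17 were low in KO sorted neurons, where the highest were Olfr301 and Gsdmd at 29.0 each.

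Rec8, a meiotic cohesin subunit, had 19 in KO sorted neurons, 16.5 in Het and 7.45 in WT. In the epithelium it had 31.8 with water and 25.97 with odor in KO, 30.0 and 5.35 in Het, and 8.09 and 4.71 in WT, so both KO libraries lay above both WT libraries. Tdrd12, a protein of the germline small RNA pathway, had 7.80 in KO sorted neurons, 4.80 in Het and 1.71 in WT, and 6.19 and 5.82 in KO epithelium, against 2.62 and 2.08 in WT. Zbp1, a sensor of left-handed nucleic acid, had 9.07 in KO sorted neurons, 2.70 in Het and 4.07 in WT, and 11.9 and 8.12 in KO epithelium, against 0.625 and 0.809 in WT. Usp18, which removes the ubiquitin-like ISG15, had 21.0 in KO sorted neurons, 13.0 in Het and 8.997 in WT, and 43.9 and 47.6 in KO epithelium, against 17.7 and 21.7 in WT.

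Gsdmd, the pore-forming gasdermin of inflammatory cell death, had 29.0 in KO sorted neurons, 13.2 in Het and 8.88 in WT, and 29.4 and 29.7 in KO epithelium, against 11.8 and 12.7 in WT. Galr2, a galanin receptor, had 24.8 in KO sorted neurons, 12.1 in Het and 4.15 in WT, and 2.14 and 1.89 in KO epithelium, against 0.799 and 0.551 in WT. For Rec8, Tdrd12, Zbp1, Usp18, Gsdmd and Galr2 the KO and WT epithelium libraries did not overlap, though each was chosen for being 2-fold apart within both pairs. For Car6 and Muc6 they overlapped. Car6, a secreted carbonic anhydrase of glands, varied widely between libraries, with 188 and 1355 in KO epithelium, against 9.5 and 427 in WT, and had 8.06 in KO sorted neurons, 4.85 in Het and 0.689 in WT. Muc6, a gel-forming mucin, had 17.3 in KO sorted neurons, 6.26 in Het and 2.42 in WT, and 1.70 and 7.52 in KO epithelium, against 0.332 and 2.06 in WT. Gata3, a transcription factor of several epithelia and of T cells, had 11.0 in KO sorted neurons, 7.52 in Het and 3.34 in WT. Trem2, a receptor of macrophages and microglia, had 6.34 in KO sorted neurons, 2.55 in Het and 2.52 in WT. Myh3, the embryonic muscle myosin, had 6.19 in KO sorted neurons, 5.31 in Het and 2.12 in WT. Of the lower genes, Pabpc5, a poly(A)-binding protein, had 2.09 in KO sorted neurons, 11.3 in Het and 10.7 in WT, and 3.81 and 0.48 in KO epithelium, against 12.6 and 5.47 in WT.

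**Figure D5:**
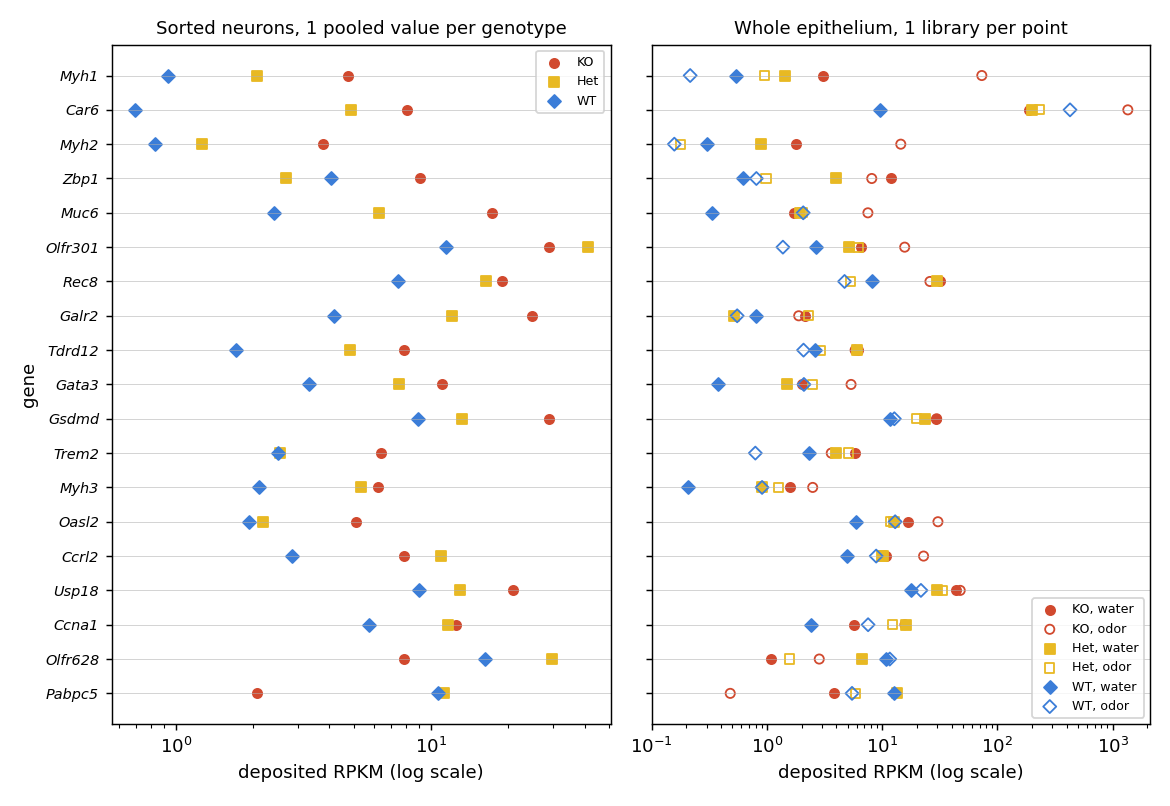
Deposited RPKM (horizontal axis, log scale) of the 19 genes at least 2-fold apart the same way in sorted neurons and in both epithelium pairs, with 1 pooled value per genotype in sorted neurons (left) and 1 point per library in the epithelium (right; filled for water, open for odor). The 17 upper genes have KO right of WT in each pair, and Olfr628 and Pabpc5 have it left.

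The promoters of 3 of these genes are shown because Dnmt3a methylates cytosine next to guanine, and they differ in how many such sites they hold. Each runs from 250 bases before to 50 after the transcription start in RefSeq's table of the build GRCm38.p6, on the gene's strand, with each CpG in capitals. The deposited values were made on mm9, so these coordinates are not those of the authors' files. Across 32851 promoters of that length in the table, the median was 7 CpG and 5.43% had none. The Rec8 promoter (chr14:55617916-55618215, plus strand) held 18 CpG, and 29.7% of promoters held at least as many. The Muc6 promoter (chr7:141655344-141655643, minus strand) held 6, reached by 56.4%, and the Car6 promoter (chr4:150201086-150201385, minus strand) 4, reached by 68.6%. Methylation of these promoters was not analysed here.
Rec8: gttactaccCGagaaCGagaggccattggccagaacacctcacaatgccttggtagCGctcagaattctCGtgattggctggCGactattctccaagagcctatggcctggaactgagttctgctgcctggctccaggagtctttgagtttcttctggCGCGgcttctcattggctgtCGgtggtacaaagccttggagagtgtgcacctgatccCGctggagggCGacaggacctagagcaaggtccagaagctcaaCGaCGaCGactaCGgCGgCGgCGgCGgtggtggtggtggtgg
Muc6: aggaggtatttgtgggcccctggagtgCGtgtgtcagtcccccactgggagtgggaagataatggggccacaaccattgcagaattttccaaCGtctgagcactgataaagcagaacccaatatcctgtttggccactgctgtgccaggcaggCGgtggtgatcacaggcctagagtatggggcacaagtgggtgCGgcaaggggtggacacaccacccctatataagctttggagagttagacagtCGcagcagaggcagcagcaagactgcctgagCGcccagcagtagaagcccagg
Car6: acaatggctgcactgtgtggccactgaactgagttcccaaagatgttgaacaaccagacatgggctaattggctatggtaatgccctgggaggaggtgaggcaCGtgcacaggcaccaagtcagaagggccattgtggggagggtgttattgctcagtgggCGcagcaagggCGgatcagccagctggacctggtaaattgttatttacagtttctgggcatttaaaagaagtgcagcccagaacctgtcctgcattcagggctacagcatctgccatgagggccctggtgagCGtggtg

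A further 16 genes were at least 2-fold apart in sorted neurons and at least 2-fold the other way in both epithelium pairs, against 19 that differed the same way in all 3 comparisons. They were named after their values were seen. Ntf5, a neurotrophin, had 28.04 in KO sorted neurons, 14.5 in Het and 3.13 in WT, but 1.30 and 0.572 in KO epithelium, against 7.75 and 3.51 in WT. Tuba8, an alpha tubulin, had 10.2 in KO sorted neurons, 11.1 in Het and 1.18 in WT, but 3.43 and 0.504 in KO epithelium, against 13.2 and 11.9 in WT. Gfra3, the artemin receptor of sensory neurons, had 19.3 in KO sorted neurons, 6.23 in Het and 5.70 in WT, but 5.11 and 0.563 in KO epithelium, against 14.8 and 2.97 in WT.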

How the data were processed

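Per the labels' protocols, RNA was extracted with TRIzol and depleted of ribosomal RNA, and libraries were made with the kits named above. The authors deposited RPKM values, 1 pooled column per genotype for sorted neurons (14751 rows) and 1 column per library for the epithelium. The way of pooling libraries and the formula of RPKM are not given in the sources used here. The submitters' processing notes name Bowtie2 2.1, STAR 2.3.0, Picard 1.64, featureCounts, DESeq and the builds mm9 and NCBIM37, with no role for each. Tables were read with Python 3.11.15 and pandas 2.3.3, and symbols are those of the files.

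Genes with at least 0.5 in 2 columns were kept, and differences are of log2(value + 0.5), which understates the change of low genes. The level of a gene is its mean over the 3 sorted-neuron columns. No test was made between sorted neurons. Epithelium libraries were fitted with limma 3.58.1 (genotype and exposure as terms, moderated with a trend, two-sided, Benjamini-Hochberg over all genes, 2 residual degrees of freedom), and the fit was tested on simulated data. Nothing says that libraries came from separate animals, so that its p-values measure the spread between libraries only. Alternatives were other pseudocounts, other filters, median centring, quantile normalization, a 4-fold line, single epithelium pairs and leaving out each epithelium library.

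Named genes were drawn from Dnmt3a, the 10 largest differences each way at 10 or more in KO or WT (leaving out receptors, replication-dependent histones, pseudogenes, predicted genes and small RNA genes), per list the largest difference each way and the member highest in WT, up to 10 each way shared with both epithelium pairs at 5 or more, cell type markers, and 3 receptors each way. The members and the 40 lists were chosen with earlier results of these data known. Ebf1, Krt8, Gins1, Rfc4, Pou4f1, Psmb5, Usp18, the 12 high genes, the remaining genes shared with the epithelium and those of opposite direction were named after their values were seen. Uchl1, Dnmt3b, Nhlh1, Nhlh2, Gsx1, Msx1, Hoxb13, Hoxd11, Bhlhe22, Piwil1, Cdkn1c, Uhrf2 and Egr3 fall under none of these rules either. They are chosen examples of their lists.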

Additional observations from a re-analysis of the deposited data

Results flagged for a closer look

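Egr2, an activity-induced zinc finger factor, differed in direction between the tissues. In sorted neurons it had 6.78 in KO, 1.637 in Het and 1.37 in WT, a log2 difference of 1.96, and of 0.964 after quantile normalization. In the epithelium it had 0.274 with water and 2.66 with odor in KO, against 1.23 and 7.01 in WT, log2 differences of -1.16 and -1.25. The difference between the tissues was not tested. The sorted KO and WT columns also differ by library kit, and the part of the kit in this result was not tested.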

How the results depend on the processing

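No paired analysis was possible because the sorted-neuron table holds 1 pooled value per genotype. The 2579 genes at least 2-fold higher in KO became 1627 with a mean of 5 or more required, 1006 after quantile normalization (919 of them shared with the 2579) and 443 at 4-fold. The 419 lower genes became 246 after median centring, 784 after quantile normalization (264 shared) and 33 at 4-fold. The 19 genes shared with both epithelium pairs became 5 with a pseudocount of 2, 8 with a mean of 5 or more, 198 with the water pair alone and 239 with the odor pair alone. Kit, the receptor tyrosine kinase, reversed under quantile normalization, with a difference of -0.016 there against 1.05 as deposited, and of the other named genes 123 kept their value within the limit set and 57 moved. The cause was not tested. The count of 0 genes in the epithelium held in every alternative run, with a lowest adjusted p of 0.0571 by limma when the WT odor library was left out. The depth of the sorted-neuron libraries is unknown, so the precision of low values cannot be stated.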

Other observations

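Over all genes, 17.5% were at least 2-fold higher in KO sorted neurons and 2.84% lower. Histone genes gave 7 of 42 (16.7%) at least 2-fold higher and 3 (7.14%) lower, with a median of -0.10 that turned to 0.14 after quantile normalization. Hist3h2ba had 1081 in KO, 614 in Het and 435 in WT, and Hist1h2ak had 265 in KO, 149 in Het and 91.6 in WT. The largest difference of the list was the other way, at Hist1h2al, with 35.9 in KO, 34.8 in Het and 161 in WT. Histone genes have near-identical copies that can share reads. Axon guidance genes gave 13 of 58 at least 2-fold higher and 1 lower, with a median of 0.06, and 0.01 after quantile normalization. Synaptic genes gave 6 of 43 higher and none lower, with a median of -0.31 (-0.01 after quantile normalization). The 11 vomeronasal receptors, which belong to another sensory organ, gave 3 (27.3%) at least 2-fold higher, and their median of 0.45 turned to -0.64 after quantile normalization. All 11 lay under 20, where 42.3% of all genes were 2-fold higher.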
